A study of Mus musculus with 48 samples.

Results

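A set of 40 genes of the extracellular matrix and of hepatic stellate cells were followed in RNA sequencing of mouse liver. They were chosen by gene symbol for their known roles, with earlier results of these data known, and all 40 were found among the 15041 genes of the deposited table. The livers came from mice labelled SHP knockout and from wild-type C57BL/6 mice. SHP is the small heterodimer partner, a nuclear receptor without a DNA-binding domain, and its gene is Nr0b2. Each genotype was given a 5% ethanol liquid diet or a maltose control diet over 10 days and then, at 9 am on day 11, a gavage of 5 g ethanol or 9 g maltose dextrin per kg body weight. Livers were collected at 6pm, midnight, 6am and noon from 3 mice per group, so that the 4 arms (knockout-labelled with ethanol, knockout-labelled control, wild type with ethanol, wild-type control) held 12 livers each and 48 in all. Since every gavage was at 9 am, each clock time is also a different time since the gavage, and the effects of these cannot be told apart. Neither the targeted allele and background strain of the knockout nor the age and sex of the mice is known from the labels, so a difference between genotypes may include a difference of strain.

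In the liver, hepatic stellate cells store retinyl esters and are the main source of fibrillar collagen when they become myofibroblasts, a change driven by TGF-beta and PDGF. Fibrillar collagens give the scar its tensile strength, basement membrane collagens and laminins line vessels, and lysyl oxidases crosslink collagen. Matrix metalloproteinases cut these proteins and the TIMPs inhibit the metalloproteinases. Hepatocytes make much of the fibronectin and most of the vitronectin of plasma, so not every gene of the matrix reports on stellate cells. In a whole-liver sample, a change in the number of cells of a type and a change in RNA per cell cannot be told apart.

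Levels below are the deposited FPKM (fragments per kilobase of gene, relative to library size) multiplied by a scale factor per liver, called scaled FPKM. Libraries held 9605636 to 19780144 reads in genes, as recovered from the steps between FPKM values. All 40 genes passed the filter on low values, and 13765 genes were tested in all. A gene is called where its adjusted p from limma (Benjamini-Hochberg over all genes tested) is under 0.05, and differences are of log2(scaled FPKM + 0.5) with the standard error (SE) in parentheses. Nr0b2 itself was read in every arm: the lowest, median and highest scaled FPKM were 3.32, 14.4 and 25.5 in knockout-labelled ethanol livers, 3.69, 20.6 and 30 in knockout-labelled controls, 4.12, 7.72 and 27.5 in wild-type ethanol livers and 6.56, 22.3 and 39.6 in wild-type controls. The genotype was therefore taken from the labels alone, and the gene-level values do not check it because the targeted part of the gene is not known. The separate treatment tag of 24 libraries did not match the sample title. The titles were used, since they give 3 livers in each of the 16 groups that the series' design describes.

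A liver of the midnight group of knockout-labelled ethanol mice (replicate 0) stood apart. It held 2966 scaled FPKM of Cela1, a pancreatic elastase, against 3.68 to 19.3 in the other 47 livers, with 1529 of Prss2 and 4809 of Ctrb1, further pancreatic enzymes. It also held 47.9 of Acta2, 13.9 of the smooth muscle myosin Myh11 and 42.5 of the bile duct keratin Krt19, against highest values of 19.9, 3.42 and 17.3 in the others. This liver had the highest level of the 48 for 12 of the 40 genes (Col1a2, Col5a2, Col6a1, Col6a2, Lox, Loxl1, Timp2, Mmp2, Acta2, Tagln, Des and Vim). Counts of the 40 genes and the calls that end without it are given beside the comparisons it enters. The further gene lists were not counted again without it. In 5 livers the acute phase gene Saa1 reached at least 5000 scaled FPKM: 1 knockout-labelled ethanol liver each at 6pm, midnight and noon (all replicate 1) and 2 wild-type control livers at 6pm (replicates 0 and 2).

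The 40 genes spanned a wide range of levels in wild-type control livers. The medians of 3 genes were at least 100 scaled FPKM, 4 lay between 10 and 100, 26 between 1 and 10, and 7 under 1. Vtn (vitronectin) was highest at a median of 977, followed by Fn1 (fibronectin) at 207, Col18a1 (the collagen that carries endostatin) at 103 and Dcn (decorin) at 97.9. The 12 wild-type control livers ranged from 74.5 to 123 for Col18a1 and from 78.4 to 121 for Dcn, so the order of these neighbours was not separated by their spread. Col3a1 had 4.97, Col1a2 1.55 and Col1a1 1.3, while Timp1 (0.142) and Lox (0.0911) were lowest. Timp1 was at 0 reads in 5 of the 48 libraries and at most 44 reads in any, and Lox at 0 in 1 library. Stellate cell genes were present in every liver: Lrat, which esterifies retinol, had a median of 6.12, Reln (reelin) 3.38 and Des (desmin) 1.07.

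Several genes overlap another gene in the GENCODE annotation, and the library kit does not mark strand, so their reads cannot be fully told apart from those of the partner. Col4a1 (chromosome 8, 11198423 to 11312826, minus strand, GRCm38) and Col4a2 (chromosome 8, 11312805 to 11449287, plus strand) lie head to head and share 22 bases. Exons of Timp3 overlap those of Syn3 on the other strand, exons of Tagln those of Pcsk7, and exons of Fn1 (chromosome 1, 71585520 to 71653200) those of Apol7d. Col3a1 (chromosome 1, 45311538 to 45349706) shares exon sequence with the predicted gene Gm47302 on its own strand. Col1a1 (chromosome 11, 94936224 to 94953042), Col1a2 (chromosome 6, 4504814 to 4541544), Vtn (chromosome 11, 78499091 to 78502324), Timp1 (chromosome X, 20870166 to 20874735) and Acta2 (chromosome 19, 34241090 to 34255590) overlap no other exon.

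**Figure D1:**
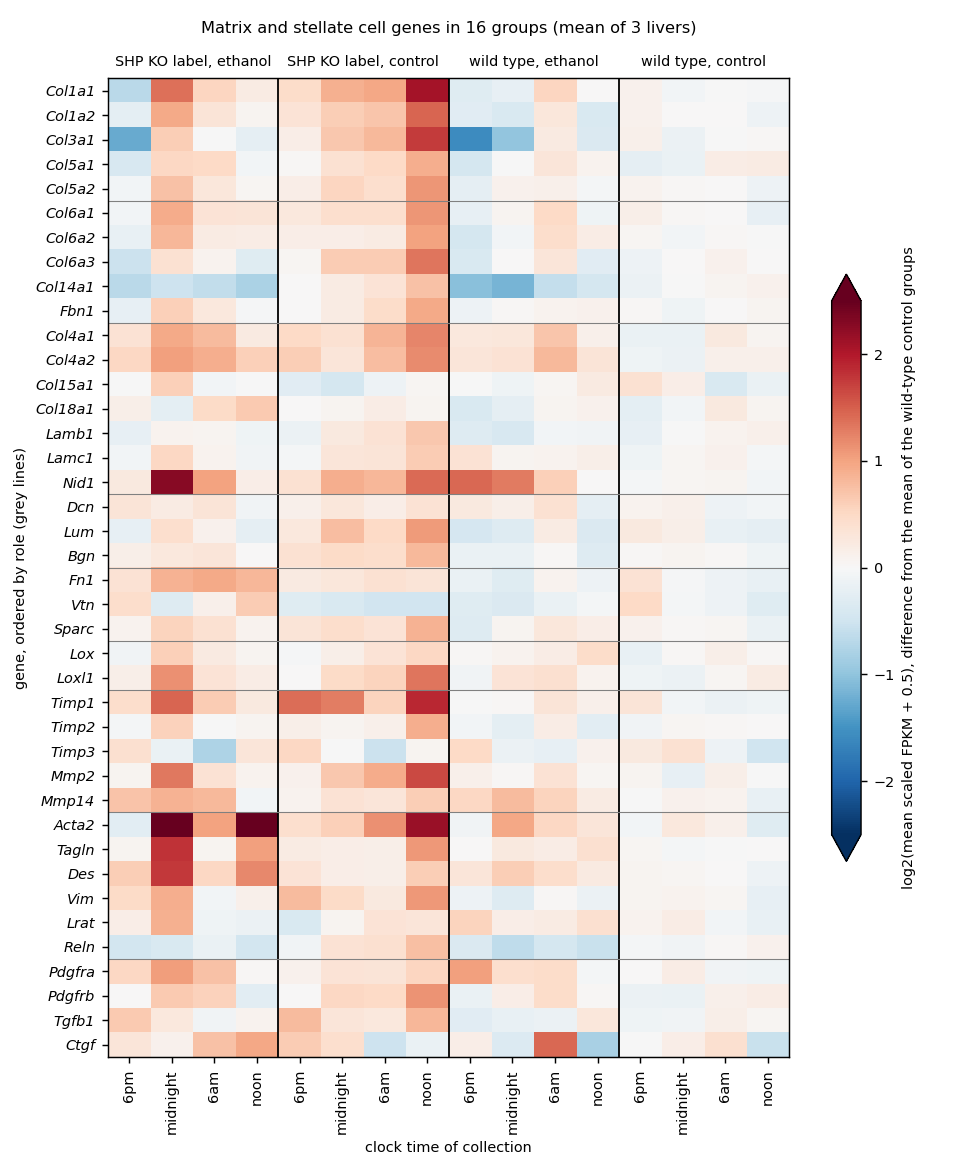
Heat map of the 40 genes (rows, by role) in 16 groups (columns, by arm and clock time); colour is log2(mean scaled FPKM of 3 livers + 0.5) minus the mean of the 4 wild-type control groups, and values beyond the scale take the end colour. The column of knockout-labelled controls at noon is the darkest of its arm for the fibrillar collagens. In knockout-labelled ethanol mice Acta2 is beyond the scale at midnight and near its end at noon, where single livers hold 47.9 and 19.9 scaled FPKM.

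In control mice, the matrix genes were higher with the knockout label, and more of them passed at noon than at any other time. Averaged over the 4 times, 27 of the 40 genes were higher and 1 lower in knockout-labelled controls than in wild-type controls, against 15.4% higher and 16.9% lower of all genes tested. The median difference of the 40 genes was 0.43, beside -0.01 over all genes tested. With noon left out (a choice made after seeing the data), 7 were higher and 1 lower (17.5% and 2.5%), against 9.12% and 9.13% of all genes tested.

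All 5 fibrillar collagens were higher. Col1a1 had a lowest, median and highest level of 0.873, 3.77 and 10.4 scaled FPKM in knockout-labelled controls, against 0.695, 1.3 and 2.42 in wild-type controls, a log2 difference of 1.06 (SE 0.25, adjusted p = 0.00145). Col1a2, which encodes the second chain of type I collagen, had 1.02, 3.11 and 6.67, against 0.891, 1.55 and 2.33 (difference 0.74, SE 0.2, adjusted p = 0.0049). Col3a1, type III collagen, had 3.23, 11.1 and 22.6, against 2.58, 4.97 and 9.32 (difference 0.83, SE 0.28, adjusted p = 0.02). The upper end of the knockout-labelled range was above all wild-type controls for each of these chains, and the lower end overlapped them. Col5a1 and Col5a2, the type V chains that start fibrils, differed by 0.45 and 0.54. Without noon these differences were 0.71 for Col1a1, 0.47 for Col1a2 and 0.52 for Col3a1, with adjusted p of 0.0825, 0.16 and 0.262. Col5a1 stayed called without noon (0.36, adjusted p = 0.014) and Col5a2 did not (0.32, adjusted p = 0.133).

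The promoters of Col1a2 and Col3a1 are shown because these chains were high in the same livers, and that of Nid1 because it rose most of the 40 with ethanol in wild type. They are the 250 bases before the RefSeq start of each gene (GRCm38.p6, plus strand in each case). The RefSeq start lies 804 bases inside the GENCODE gene for Col1a2 and 51 bases inside it for Nid1, and is the same for Col3a1, so the Col1a2 window lies wholly and the Nid1 window partly within the GENCODE gene. Capitals mark matches on either strand to the CCAAT box, the TATA box written as TATAAA, or the GC box written as GGGCGG, all motifs of general promoters.
Col1a2, chr6:4505368-4505617: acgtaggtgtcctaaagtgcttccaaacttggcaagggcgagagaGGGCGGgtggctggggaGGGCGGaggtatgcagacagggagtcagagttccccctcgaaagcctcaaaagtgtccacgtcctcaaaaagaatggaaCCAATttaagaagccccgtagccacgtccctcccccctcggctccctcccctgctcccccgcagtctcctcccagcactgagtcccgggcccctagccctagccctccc
Col3a1, chr1:45311288-45311537: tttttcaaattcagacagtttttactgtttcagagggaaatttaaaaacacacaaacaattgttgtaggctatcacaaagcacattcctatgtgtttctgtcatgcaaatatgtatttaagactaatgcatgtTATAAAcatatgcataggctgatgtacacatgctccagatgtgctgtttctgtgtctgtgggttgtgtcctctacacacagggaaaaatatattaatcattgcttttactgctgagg
Nid1, chr13:13437352-13437601: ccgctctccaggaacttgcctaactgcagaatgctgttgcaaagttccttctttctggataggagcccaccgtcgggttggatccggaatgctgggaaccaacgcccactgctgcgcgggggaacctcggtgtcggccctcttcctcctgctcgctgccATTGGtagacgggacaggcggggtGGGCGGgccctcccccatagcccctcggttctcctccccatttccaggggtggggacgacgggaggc
The Col1a2 window held CCAAT at 109 to 105 bases before the start and 2 matches to GGGCGG, the Col3a1 window held TATAAA at 117 to 112 bases, and the Nid1 window held CCAAT on the minus strand at 91 to 87 bases and GGGCGG at 67 to 62 bases. Their G and C content was 62.0% (Col1a2), 35.2% (Col3a1) and 64.4% (Nid1), beside a median of 52.4% over 32817 windows of this length. The promoter table held 27 of the 40 genes: 11 had CCAAT, 3 TATAAA and 17 GGGCGG, and the shares of all windows were 33.8%, 12.4% and 32.7%. The AP-1 site TGAGTCA was in 1 of the 27 (4.46% of all windows), and the nuclear receptor half-site AGGTCA (14%) and the CArG box (1.47%) were in 0.

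Among basement membrane genes 5 of 7 were higher in knockout-labelled controls. Col4a2 had 3.61, 6.19 and 9.67 scaled FPKM (lowest, median, highest) in knockout-labelled controls, against 2.37, 3.42 and 4.7 in wild-type controls, a difference of 0.72 (SE 0.1, adjusted p = 2.27e-06). Its partner chain Col4a1 had 4.72, 9.71 and 14.3, against 4.11, 4.98 and 8.07, also 0.72 (SE 0.11, adjusted p = 8.27e-06). Nid1, nidogen, which links laminin to type IV collagen, differed by 0.84 (SE 0.22, adjusted p = 0.00348), and the laminin chains Lamb1 and Lamc1 by 0.28 and 0.29. Without noon both type IV chains stayed called, at 0.6 for Col4a2 and 0.58 for Col4a1, while Nid1 (0.63, adjusted p = 0.0752), Lamb1 (0.19, adjusted p = 0.142) and Lamc1 (0.16, adjusted p = 0.268) did not pass. Col15a1 (-0.2) and Col18a1 (0.07) were not called.

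The protease and inhibitor group was led by Timp1, an inhibitor of metalloproteinases that marks injured liver. Timp1 had 0.285, 1.11 and 2.91 scaled FPKM in knockout-labelled controls, against 0, 0.142 and 0.727 in wild-type controls, a difference of 1.23 (SE 0.22, adjusted p = 5.98e-05) that was 0.96 (adjusted p = 0.00668) without noon. The median of Timp1 in knockout-labelled controls was over the highest wild-type value. Mmp2, a gelatinase, had 0.666, 2.28 and 6.3, against 0.744, 1.12 and 1.57, and rose by 0.8 (SE 0.18, adjusted p = 0.000706) and Mmp14, the membrane protease that activates it, by 0.35. Without noon Mmp2 (0.53, adjusted p = 0.0636) and Mmp14 (0.21, adjusted p = 0.235) did not pass. Timp2 (0.3) and Timp3 (0.03) were not called. Of the microfibril and fibril-associated genes 4 of 5 were higher, among them Col6a3, a chain of the beaded filaments of type VI collagen, with 0.562, 1.7 and 3.15 against 0.564, 0.766 and 1.18 (difference 0.64, SE 0.13, adjusted p = 0.000355). Col6a1 differed by 0.53, Fbn1 (fibrillin-1) by 0.41 and Col14a1 by 0.33, while Col6a2 was at 0.37 (adjusted p = 0.0648). Of the small proteoglycans, Bgn (biglycan) had 32.7, 45.5 and 59.3 against 26, 31.3 and 35.4 (difference 0.52, SE 0.09, adjusted p = 8.65e-05). Lum (lumican) was higher by 0.64, Sparc, a collagen-binding glycoprotein, by 0.48 and Loxl1, a crosslinking oxidase, by 0.58. Without noon Bgn stayed called (0.39, adjusted p = 0.0123). Col6a3 (0.41, adjusted p = 0.0545), Col6a1 (0.28, 0.285), Fbn1 (0.25, 0.0911) and Col14a1 (0.23, 0.233) then did not pass. Nor did Lum (0.42, adjusted p = 0.163), Sparc (0.3, 0.14) and Loxl1 (0.4, 0.113).

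The growth factor Tgfb1 had 2.25, 3.7 and 6.14 scaled FPKM in knockout-labelled controls, against 1.36, 2.38 and 3.4 in wild-type controls, and differed by 0.54 (SE 0.13, adjusted p = 0.0021). Of the PDGF receptors, which drive stellate cells to divide and migrate, Pdgfrb had 1.17, 2.95 and 5.03 against 1.55, 1.7 and 2.75 (difference 0.53, SE 0.11, adjusted p = 0.000507) and Pdgfra differed by 0.33. Tgfb1 and Pdgfrb overlapped between the arms, and Ctgf, a matricellular gene induced by TGF-beta and YAP, was at 0.13 (SE 0.27, adjusted p = 0.746). Of the stellate and cytoskeletal genes Vim (vimentin, 0.59) and Reln (0.36) were called. Without noon Tgfb1 (0.46, adjusted p = 0.0325) and Pdgfrb (0.39, adjusted p = 0.0312) stayed called. Vim (0.36, adjusted p = 0.342), Reln (0.27, 0.143) and Pdgfra (0.22, 0.238) then did not pass. Acta2, smooth muscle actin and the usual mark of myofibroblasts, had 0.718, 1.83 and 9.23 against 0.362, 1.06 and 1.74, a difference of 0.96 (SE 0.39) that did not pass (adjusted p = 0.0594). Lrat was at 0.08 (SE 0.12, adjusted p = 0.662), with 3.73, 6.51 and 9.78 scaled FPKM in knockout-labelled controls and 4.48, 6.12 and 7.73 in wild-type controls. Vtn was the gene that was lower, at 671, 762 and 1024 in knockout-labelled controls and 784, 977 and 1772 in wild-type controls (difference -0.4, SE 0.12, adjusted p = 0.00835). It was -0.28 (adjusted p = 0.0105) without the 5 livers high in Saa1. Fn1, by contrast, was higher, with 205, 273 and 305 against 166, 207 and 371 (difference 0.31, SE 0.11, adjusted p = 0.0252), and was not called without noon (0.24, adjusted p = 0.167). The remaining genes that did not pass were Dcn (0.24), Lox (0.23), Des (0.3) and Tagln (0.36). When single livers were left out, the calls of Vim, Col14a1, Fn1 and Pdgfra were lost in 15, 5, 2 and 1 of 24 fits, and those of the other 24 genes called were kept.

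At noon, 25 of the 40 genes were higher and 0 lower in knockout-labelled than in wild-type controls, against 5.79% higher and 7.33% lower of all genes tested. The median of the 40 was 0.9. The same contrast called 2 higher (Tgfb1 and Col4a2) and 1 lower (Vtn) at 6pm, against 3.07% higher and 2.74% lower of all genes. It called 0 at midnight, where 0.705% of all genes were higher and 0.865% lower, and 0 at 6am (1.54% higher and 1.05% lower), although 9 and 6 of the genes had an unadjusted p under 0.05 and voom called 0 at each. The 6pm count was 0 without wild-type replicate 0 and 0 without knockout-labelled replicate 0 or 1, and the midnight count was 1 without knockout-labelled replicate 2. The median of the 40 was 0.16 at 6pm, 0.32 at midnight and 0.39 at 6am. The comparison at each time was added after seeing the data, and the tests at the 4 times were not compared with each other here beyond the time-of-day tests below.

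The noon controls labelled knockout were set apart liver by liver. Col1a1 was at 10.4, 6.61 and 5.71 scaled FPKM in the 3 knockout-labelled control livers of noon, against 1.35, 2.11 and 0.695 in the 3 wild-type controls. Col3a1 was at 22.6, 18.5 and 15.3, against 6.77, 6.56 and 2.87. Timp1 was at 2.03, 2.44 and 2.15, against 0.348, 0.194 and 0. In each case the lowest knockout-labelled liver was more than the highest wild-type liver, and the log2 differences were 2.13 (SE 0.5), 1.77 (SE 0.55) and 2.02 (SE 0.44), with adjusted p of 0.00541, 0.0298 and 0.00259. Col1a2 was at 6.67, 4.08 and 4.38, against 1.5, 1.67 and 0.891, and Mmp2 at 6.3, 3.13 and 4, against 1.32, 1.12 and 0.814. The levels of 37 of the 40 genes were higher in all 3 knockout-labelled than in all 3 wild-type livers and of 0 genes lower, where 20.7% and 21.1% of all genes tested separated in this way. These 3 livers held the highest value of the 48 for 15 of the genes: 5 in replicate 0 (Col1a1, Col3a1, Lum, Bgn and Sparc), 8 in replicate 1 (Col5a1, Col6a3, Col14a1, Fbn1, Col4a1, Col4a2, Lamc1 and Pdgfrb) and 2 in replicate 2 (Lamb1 and Reln). Without wild-type replicate 2 the number called at noon was 15.

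Markers of other cell types moved at noon too, and their part in the result was not tested. The sum of 6 smooth muscle markers was 6.87, 3.9 and 6.97 scaled FPKM in knockout-labelled noon controls and 2.36, 2 and 2.04 in wild-type noon controls. The sum of 10 portal fibroblast and mesothelial markers was 53.3, 32.6 and 41.9 against 23.5, 27.4 and 23.5, that of 8 bile duct markers 67.7, 97.6 and 82.4 against 48.9, 63.8 and 32.6, and that of 13 Kupffer cell markers 420, 400 and 388 against 327, 189 and 272. The sum of 17 further stellate cell markers was 195, 194 and 200 against 182, 170 and 161. The sum of 13 sinusoidal endothelial markers was 149, 146 and 144 against 140, 94.2 and 122. All 6 of these sums were higher in every knockout-labelled noon control than in every wild-type one, as were 20.7% of single genes tested. The sums of lymphocyte, neutrophil, hepatocyte and neighbouring tissue (such as pancreas) markers overlapped between the 2 groups. The hepatocyte sum was 50010, 41304 and 40618 against 44575, 49928 and 49825. The smooth muscle sums of the control arms also separated at 6am (2.38, 6.25 and 3.97 against 2.23, 2.26 and 2.12) and overlapped at 6pm and midnight. Cnn1, a smooth muscle marker, was at 0 in the wild-type noon controls.

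**Figure D2:**
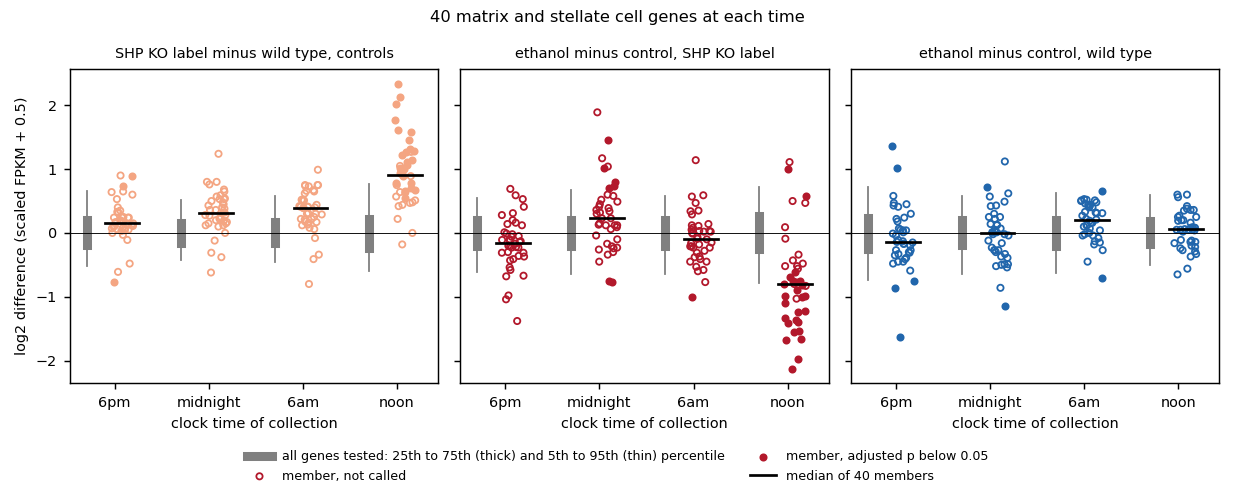
Log2 difference of scaled FPKM (+ 0.5) for each of the 40 genes at each clock time, for the knockout label in controls (left), ethanol in knockout-labelled mice (middle) and ethanol in wild type (right); filled points have adjusted p under 0.05, black bars are medians and grey bars show all genes tested. At noon the medians are 0.9 on the left and -0.8 in the middle, and both comparisons use the same 3 knockout-labelled noon controls.

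The fibrillar collagens were lower with ethanol in knockout-labelled mice. Averaged over the 4 times, 3 of the 40 genes were higher and 14 lower in ethanol than in control livers of this genotype label, against 16.8% higher and 14.8% lower of all genes tested, and the median of the 40 was -0.19. All 5 fibrillar collagens fell. Col3a1 had a lowest, median and highest level of 1.27, 4.1 and 17.1 scaled FPKM in ethanol livers, against 3.23, 11.1 and 22.6 in controls (difference -1.13, SE 0.28, adjusted p = 0.00194). Col1a1 had 0.6, 1.85 and 9.27, against 0.873, 3.77 and 10.4 (-0.78, SE 0.25, adjusted p = 0.0168), and Col1a2 0.956, 1.47 and 7.42, against 1.02, 3.11 and 6.67 (-0.56, SE 0.2, adjusted p = 0.0322). In each of them the highest ethanol value belonged to the midnight liver with pancreatic RNA, and without that liver 3 genes were higher and 18 lower.

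Col14a1, a fibril-associated collagen, fell at the smallest adjusted p of the 40. It had 3.68, 5.09 and 8.34 scaled FPKM in ethanol livers and 6.42, 10.9 and 15.2 in controls (difference -1.0, SE 0.12, adjusted p = 8.25e-08). Reln had 1.49, 2.29 and 3.71 against 2.41, 4.47 and 6.51 (-0.74, SE 0.11, adjusted p = 5.66e-06), and Col6a3 had 0.21, 0.69 and 1.37 against 0.562, 1.7 and 3.15 (-0.75, SE 0.13, adjusted p = 3.89e-05). The arms overlapped in each of the 3 genes. Lum had 3.73, 5.55 and 15.2 against 5.2, 10.1 and 17.2 (-0.67, SE 0.18, adjusted p = 0.00514), and Timp1 had 0, 0.542 and 2.05 against 0.285, 1.11 and 2.91 (-0.58, SE 0.22, adjusted p = 0.0399). Bgn fell by 0.35 on the log2 scale. Lamb1, Col5a1, Col5a2, Pdgfrb and Fbn1 fell by 0.28 to 0.34. With noon left out Col14a1, Reln and Col6a3 stayed called, at -0.81, -0.57 and -0.44, and 6 genes were higher and 3 lower in all (15% and 7.5%), near the 11.9% and 11.2% of all genes tested. The fibrillar chains were then at -0.37 (Col1a1, adjusted p = 0.372), -0.28 (Col1a2, adjusted p = 0.419) and -0.8 (Col3a1, adjusted p = 0.0662). When single livers were left out, the calls of Col5a2, Timp1, Col1a2, Pdgfrb and Fbn1 were lost in 16, 15, 12, 11 and 1 of 24 fits. With scaling to library totals alone, under which the median of all genes was itself at -0.20, 2 genes were higher and 24 lower (5% and 60%), against 3.94% and 49.1% of all genes tested.

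The 3 genes that rose with ethanol in knockout-labelled mice were Vtn, Fn1 and Des. Vtn had 756, 1082 and 2505 scaled FPKM in ethanol livers against 671, 762 and 1024 in controls (difference 0.59, SE 0.12, adjusted p = 0.000213), and Fn1 had 218, 379 and 513 against 205, 273 and 305 (0.43, SE 0.11, adjusted p = 0.00237). Des had 1.11, 2.16 and 8.53 against 0.831, 1.42 and 2.22 (0.65, SE 0.14, adjusted p = 0.000652). Its top value belonged to the liver with pancreatic RNA, without which the difference was 0.53 (adjusted p = 0.00111). The top Vtn liver, at 2505, was the noon liver with 30920 scaled FPKM of Saa1, and the next, at 1994, the 6pm liver with 15782. Without the 5 livers high in Saa1, Vtn differed by 0.41 (adjusted p = 0.000338) and Fn1 by 0.33 (adjusted p = 0.0207), and the members called were 3 higher and 8 lower, with Col1a1 at -0.62 (adjusted p = 0.0862). The shares of all genes called without the livers high in Saa1 were not counted. With scaling to library totals alone, Fn1 was at 0.17 (adjusted p = 0.123).

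Lrat and Acta2 did not pass in this contrast. Lrat had 3.43, 6.49 and 15.3 scaled FPKM in ethanol livers against 3.73, 6.51 and 9.78 in controls (difference 0.08, SE 0.12, adjusted p = 0.645). Acta2 had 0.427, 1.91 and 47.9 against 0.718, 1.83 and 9.23 (0.18, SE 0.39, adjusted p = 0.758). Tgfb1 was at -0.32 (adjusted p = 0.0568, and -0.38 with adjusted p = 0.0256 without the liver with pancreatic RNA), with 1.72, 2.55 and 5.77 against 2.25, 3.7 and 6.14, and Ctgf at 0.39 (adjusted p = 0.285), with 1.74, 4.53 and 7.83 against 1.23, 2.81 and 6.19.

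More genes passed at noon than at any other time. At noon, 2 genes were higher (Vtn and Col18a1) and 24 lower in knockout-labelled ethanol livers than in knockout-labelled controls, against 12.7% higher and 9.69% lower of all genes tested, with a median of -0.8 over the 40. The controls here are the same 3 livers that stood above wild type in the noon comparison of the knockout label, so the 2 results share their high side. Col1a1 was at 1.26, 0.732 and 3.15 scaled FPKM in ethanol livers at noon, against 10.4, 6.61 and 5.71 in controls (difference -1.98, SE 0.5, adjusted p = 0.00475). Col3a1 was at 4.42, 1.7 and 7.2, against 22.6, 18.5 and 15.3 (-2.13, SE 0.55, adjusted p = 0.00579), and Timp1 at 0.207, 0.301 and 0.602, against 2.03, 2.44 and 2.15 (-1.66, SE 0.44, adjusted p = 0.00605). Col14a1 was at 3.96, 4.22 and 5.87, against 14.7, 15.2 and 13.7 (-1.55, SE 0.23, adjusted p = 3.83e-05). No ethanol liver reached the lowest control for any of these 4 genes. For 27 genes all 3 ethanol livers were lower than all 3 controls and for 4 genes higher, where 18.1% and 19.7% of all genes tested separated in this way.

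For Col1a1 and Col3a1 the knockout-labelled noon ethanol livers overlapped the wild-type noon controls, which were at 1.35, 2.11 and 0.695 for Col1a1. Without ethanol replicate 1, the noon liver high in Saa1, the noon count was 1 higher and 16 lower. The sum of smooth muscle markers was 17.3, 1.83 and 3.25 in the noon ethanol livers and 6.87, 3.9 and 6.97 in their controls, and that of bile duct markers 67.7, 27.4 and 47.7 against 67.7, 97.6 and 82.4. The sum of 9 hepatocyte markers was 87201, 55220 and 71312 scaled FPKM in ethanol livers and 50010, 41304 and 40618 in controls, which did not overlap. The sum of 13 Kupffer cell markers was 231, 366 and 331 in ethanol livers and 420, 400 and 388 in controls, and was lower in every ethanol liver. The part of these shifts in the result was not tested.

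At the other times few genes passed. In knockout-labelled mice 0 of the 40 were called at 6pm (3.33% of all genes higher and 3.76% lower), although 9 had an unadjusted p under 0.05 and voom called 0. The 6pm count was 1 without any 1 of the 3 ethanol livers and 3 without control replicate 2. At midnight 5 were higher and 2 lower, against 3.94% and 5.29% of all genes: Des by 1.46 (SE 0.28, adjusted p = 0.00188), Col15a1 by 1.01, Lrat by 0.8, Col4a2 by 0.74 and Pdgfra by 0.71 were higher, and Col14a1 (-0.77) and Reln (-0.76) lower. Des was at 8.53, 3.31 and 2.63 scaled FPKM in midnight ethanol livers, against 1.26, 1.58 and 0.908 in midnight controls, and Lrat at 8.47, 10.8 and 15.3, against 5.21, 7.47 and 6.2. Every midnight ethanol liver was over every midnight control for both genes, which were chosen among those called. The share of all genes that separated in this way at midnight was not counted. Without the liver with pancreatic RNA (ethanol replicate 0) 6 were higher and 1 lower, with Des at 1.0 (adjusted p = 0.0105), Fn1 passing at 0.87 (adjusted p = 0.00261), and Pdgfra (0.66, adjusted p = 0.0686) and Reln (-0.66, adjusted p = 0.07) no longer called, and the count was 3 without ethanol replicate 1, 2 without control replicate 0 and 3 without control replicate 2. At 6am Col14a1 was the 1 gene called (-1.0, SE 0.23, adjusted p = 0.0063), against 4.74% higher and 3.56% lower of all genes. The 6am count was 3 without ethanol replicate 0 and 0 without ethanol replicate 2.

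**Figure D3:**
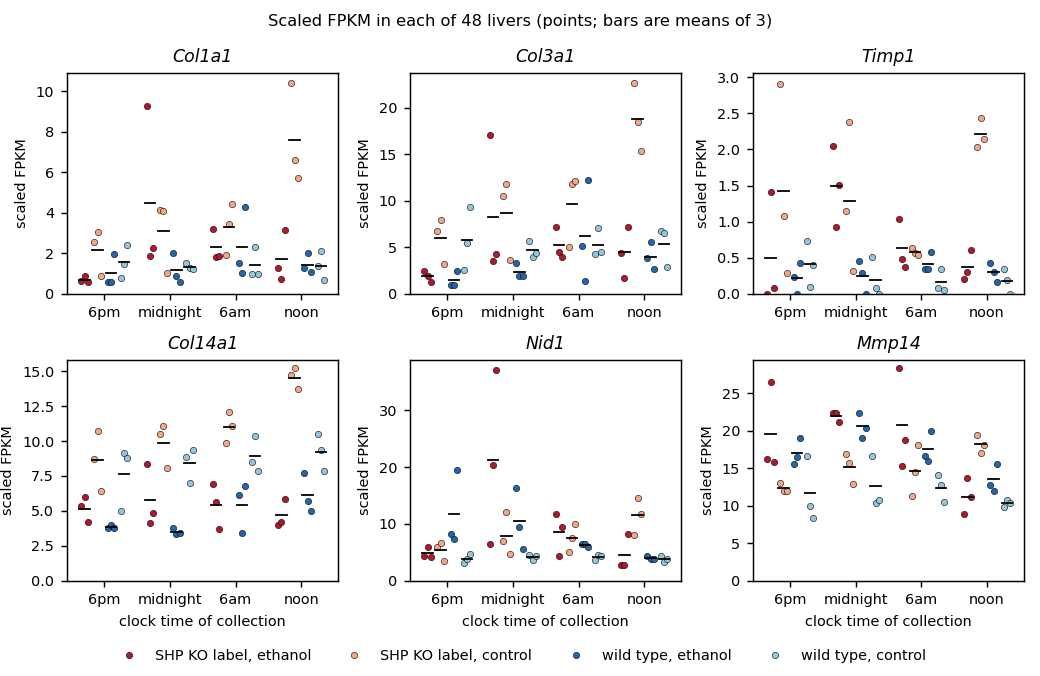
Scaled FPKM of 6 genes in each of the 48 livers by clock time (points, with bars at the mean of 3 livers), in the order knockout-labelled ethanol, knockout-labelled control, wild-type ethanol, wild-type control. At noon the knockout-labelled controls lie over the other 3 groups for Col1a1 (5.71 to 10.4), Col3a1 (15.3 to 22.6), Timp1 (2.03 to 2.44) and Col14a1 (13.7 to 15.2).

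In wild-type mice ethanol moved the matrix genes in both directions. Averaged over the 4 times, 7 of the 40 genes were higher and 4 lower in ethanol than in control livers, against 16.6% higher and 13.7% lower of all genes tested, and the median of the 40 was 0.03. The share of members called was near that of all genes. With noon left out, 12.5% of the 40 were higher and 10% lower, against 16% and 13.2% of all genes tested.

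The 7 genes that rose were Nid1, Mmp14, Pdgfra, Col4a2, Des, Col4a1 and Lrat, of which 3 belong to the 7 basement membrane genes, where Lamb1 fell. Nid1 had a lowest, median and highest level of 3.76, 6.45 and 19.5 scaled FPKM in wild-type ethanol livers, against 3.15, 4.04 and 4.63 in wild-type controls (difference 0.77, SE 0.22, adjusted p = 0.0066). Nid1 was at 8.24, 7.31 and 19.5 in ethanol livers at 6pm against 3.15, 3.74 and 4.63 in controls, and at 4.37, 3.89 and 3.76 against 4.31, 3.26 and 3.77 at noon. The 6pm groups did not overlap and the noon groups did, and the dependence of the ethanol effect on time did not pass for Nid1 in wild type (adjusted p = 0.375). The share of all genes without overlap at 6pm was not counted. Mmp14 had 12, 16.5 and 22.3, against 8.41, 10.6 and 16.6 (0.53, SE 0.11, adjusted p = 0.00021). For Nid1 and Mmp14 the ethanol median was over the control median, and the arms overlapped. Pdgfra rose by 0.46 (adjusted p = 0.00175), Col4a2 by 0.44 (adjusted p = 0.00104), Des by 0.4, Col4a1 by 0.34 and Lrat by 0.32 (adjusted p = 0.0393).

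The genes that fell were Col14a1, Col3a1, Reln and Lamb1. Col14a1 had 3.32, 3.9 and 7.75 scaled FPKM in wild-type ethanol livers, against 4.97, 8.83 and 10.5 in wild-type controls (difference -0.81, SE 0.12, adjusted p = 1.89e-06). Col3a1 had 0.932, 2.52 and 12.2, against 2.58, 4.97 and 9.32 (-0.75, SE 0.28, adjusted p = 0.0381), and the arms overlapped widely. Reln fell by 0.48 and Lamb1 by 0.21 on the log2 scale. Calls of Col3a1, Lrat, Lamb1 and Des were lost when single livers were left out (in 12, 11, 15 and 5 of 24 fits), while those of Col14a1, Mmp14, Reln, Pdgfra, Col4a2, Nid1 and Col4a1 were kept in all 24. With noon left out, Des (0.41, adjusted p = 0.0584), Lrat (0.23, 0.219) and Lamb1 (-0.21, 0.0859) were not called.

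The type I collagen chains and several other named genes did not pass in wild type. Col1a1 had 0.585, 1.16 and 4.3 scaled FPKM in ethanol livers and 0.695, 1.3 and 2.42 in controls (difference -0.04, SE 0.25, adjusted p = 0.926), and Col1a2 had 0.764, 1.05 and 3.12 against 0.891, 1.55 and 2.33 (-0.2, SE 0.2, adjusted p = 0.488). Both pairs of arms overlapped. Timp1 was at 0.14 (SE 0.22), Tgfb1 at -0.09 (SE 0.13), Ctgf at -0.07 (SE 0.27), Acta2 at 0.41 (SE 0.39), Fn1 at -0.13 (SE 0.11) and Vtn at -0.21 (SE 0.12), with adjusted p of 0.673, 0.635, 0.886, 0.473, 0.388 and 0.175. Their lowest, median and highest levels in wild-type ethanol livers were 0, 0.32 and 0.573 for Timp1, 1.49, 2.06 and 4.61 for Tgfb1, 0.633, 2.24 and 21 for Ctgf, 0.645, 1.25 and 3.42 for Acta2, 154, 189 and 290 for Fn1 and 698, 850 and 1063 for Vtn. In wild-type controls Ctgf had 1.22, 2.56 and 7.09, and the values of the others stand above. Vtn passed without noon (-0.37, adjusted p = 0.0384), and was at -0.09 (adjusted p = 0.458) without the livers high in Saa1.

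By time, ethanol called 2 genes higher (Pdgfra and Nid1) and 3 lower (Vtn, Col14a1 and Col3a1) at 6pm in wild type, against 9.75% and 8.65% of all genes. Pdgfra was at 2.38, 2.88 and 2.68 scaled FPKM in 6pm ethanol livers and 1.15, 1.06 and 0.978 in 6pm controls, a difference of 1.01 (SE 0.22, adjusted p = 0.00165). Vtn was at 854, 829 and 784 against 1772, 981 and 1535 (-0.76, SE 0.23, adjusted p = 0.0218), and the 2 highest of these controls are those high in Saa1, without which the difference was -0.26 (adjusted p = 0.502). Midnight called Mmp14 higher and Col14a1 lower (5.45% and 4.21% of all genes), 6am Col4a2 higher and Col14a1 lower (7.34% and 4.66%), and noon 0 genes (4.41% and 3.04%), where 4 had an unadjusted p under 0.05 and voom called 0. The counts moved with single livers. At 6pm the count was 3 without ethanol replicate 1 or 2 and 2 without control replicate 1 or 2. At midnight it was 1 without any 1 of the ethanol livers or without control replicate 1 or 2. At 6am it was 0 without control replicate 0 or 2, and 1 without control replicate 1 or ethanol replicate 1 or 2.

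**Figure D4:**
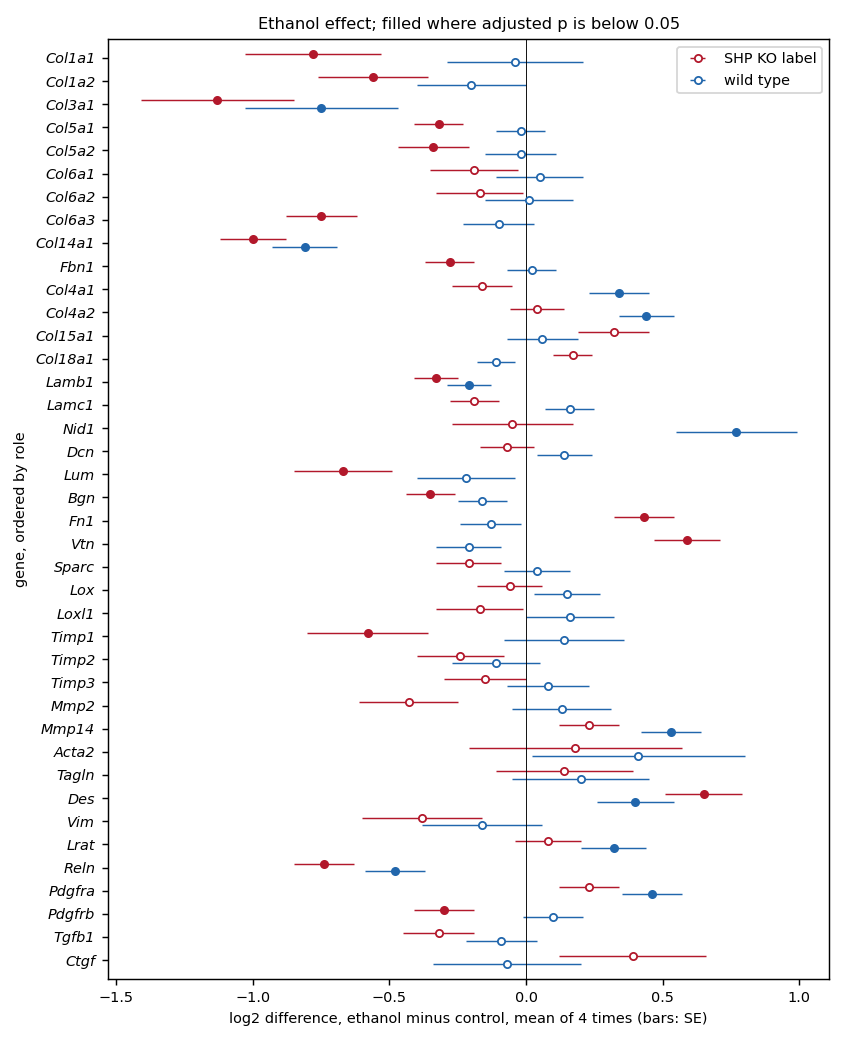
Ethanol minus control, as the log2 difference of scaled FPKM (+ 0.5) averaged over the 4 times, for the 40 genes ordered by role, in knockout-labelled and in wild-type mice; bars are the SE and filled points have adjusted p under 0.05. Col14a1, Col3a1, Reln and Lamb1 are filled on the left in both, and Vtn and Fn1 are filled on the right in knockout-labelled mice, at 0.59 and 0.43.

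The ethanol effect differed between the genotype labels for 4 of the 40 genes, tested as the difference of the 2 effects: 2 were more positive and 2 more negative in knockout-labelled mice, against 3.69% and 4.32% of all genes tested. The share of the 40 called was near that of all genes. Vtn differed by 0.8 (SE 0.17, adjusted p = 0.00259), with ethanol effects of 0.59 in knockout-labelled and -0.21 in wild-type mice. Fn1 differed by 0.56 (SE 0.15, adjusted p = 0.0189), from effects of 0.43 and -0.13. Col6a3 differed by -0.65 (SE 0.19, adjusted p = 0.0251), from -0.75 and -0.1, and had 0.337, 0.618 and 1.71 scaled FPKM in wild-type ethanol livers against 0.564, 0.766 and 1.18 in wild-type controls. Col4a1 differed by -0.49 (SE 0.16, adjusted p = 0.0439), from -0.16 and 0.34. For the other 36 genes, the fibrillar collagens among them (Col1a1 at -0.73, SE 0.35, adjusted p = 0.206), a difference of the effects was not shown. Among all alternatives tried, the calls lost were these: Fn1 without noon (adjusted p = 0.0559), without the livers high in Saa1 (0.102) and under library totals (0.0749), Col6a3 without noon (0.324) and without the livers high in Saa1 (0.104), and Col4a1 without noon (0.369) and in 30 of 48 fits that left out a liver, that with pancreatic RNA among them (0.0521). The count was 7 without wild-type ethanol replicate 1 of 6am, 8 without knockout-labelled control replicate 2 of 6pm, and 5 without the liver with pancreatic RNA. Under library totals 1 gene was more positive and 13 more negative (2.5% and 32.5%), against 1.4% and 26.4% of all genes tested, whose median was itself at -0.20.

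In ethanol mice 6 of the 40 genes were higher and 0 lower with the knockout label, against 12.6% and 15.8% of all genes tested, and the median of the 40 was 0.23. Without the liver with pancreatic RNA, 6 were also higher and 0 lower. Fn1 had a lowest, median and highest level of 218, 379 and 513 scaled FPKM in knockout-labelled ethanol livers, against 154, 189 and 290 in wild-type ethanol livers (difference 0.87, SE 0.11, adjusted p = 2.65e-07). Des had 1.11, 2.16 and 8.53, against 1.26, 1.46 and 2.21 (0.55, SE 0.14, adjusted p = 0.00404, and 0.44 with adjusted p = 0.00898 without the liver with pancreatic RNA), and Vtn 756, 1082 and 2505, against 698, 850 and 1063 (0.4, SE 0.12, adjusted p = 0.0108). The median of Fn1 in knockout-labelled ethanol livers was over the highest wild-type ethanol value. Vtn, which was lower with the knockout label in controls, was higher with it in ethanol mice. The Vtn difference in ethanol mice was 0.21 when the livers high in Saa1 were left out, against 0.4 with all livers. Col18a1 was higher by 0.36, Bgn by 0.33 and Col4a2 by 0.32. Without noon Vtn was at 0.34 (adjusted p = 0.0555). The type I and III collagens were at 0.33 (Col1a1), 0.39 (Col1a2) and 0.45 (Col3a1), with adjusted p of 0.333, 0.147 and 0.223. Acta2 was at 0.73 (SE 0.39, adjusted p = 0.158), Timp1 at 0.51 (adjusted p = 0.0755), Tgfb1 at 0.31 (adjusted p = 0.0772), Ctgf at 0.58 (adjusted p = 0.102) and Lrat at -0.17 (adjusted p = 0.304). Of these, Tgfb1 passed without noon, at 0.45 (adjusted p = 0.0256).

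Time of day was tested within each arm, and a difference among times may be one of clock time or of time since the gavage. In wild-type controls 0 of the 40 genes differed among the 4 times, against 8.35% of all genes tested, and 5 had an unadjusted p under 0.05 and voom called 0. The 4 smallest adjusted p belonged to Col18a1 (0.101), Vtn (0.118), Timp3 (0.156) and Col5a1 (0.183). In these controls Col18a1 was at 84.6, 101 and 74.5 at 6pm, 98.1, 99.2 and 96 at midnight, 118, 123 and 123 at 6am and 105, 106 and 113 at noon scaled FPKM, and Vtn was at 1772, 981 and 1535 at 6pm, 1118, 1004 and 817 at midnight, 995, 973 and 825 at 6am and 889, 784 and 794 at noon. In wild-type ethanol livers 3 genes differed, against 20.3% of all genes: Pdgfra with a range of 1.08 among its log2 time means (adjusted p = 0.00594), Col5a1 with 0.74 and Col18a1 with 0.48. Pdgfra was highest at 6pm, with 2.38 to 2.88 scaled FPKM, and lowest at noon, with 0.925 to 1.05. At midnight and 6am Pdgfra was at 1.9, 1.68 and 1.15 and at 1.32, 2.37 and 1.22. Col5a1 was at 0.543, 0.532 and 0.782 at 6pm, 1.37, 0.981 and 0.684 at midnight, 1.36, 1.07 and 1.72 at 6am and 1.03, 1.08 and 1.19 at noon. Col18a1 was at 75.4, 83.8 and 77 at 6pm, 95.7, 87 and 81 at midnight, 92.6, 119 and 113 at 6am and 104, 112 and 114 at noon. Of these genes, Pdgfra had its highest median at 6pm, and Col5a1 and Col18a1 had their lowest. Col14a1 followed at 0.71 (adjusted p = 0.0641) and did not pass. The count was 1 when wild-type ethanol replicate 0 or 1 of 6pm or replicate 2 of 6am was left out, and 5 without replicate 1 of 6am.

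In knockout-labelled controls 11 genes differed among the times, against 12.7% of all genes tested. Fbn1 (range 0.94, adjusted p = 0.00313), Lamb1 (0.83, adjusted p = 0.00455), Pdgfrb (1.14, adjusted p = 0.00512) and Col5a1 (0.9, adjusted p = 0.00583) led them. Fbn1 was at 0.402, 0.455 and 0.25 scaled FPKM at 6pm, 0.529, 0.558 and 0.41 at midnight, 0.505, 0.742 and 0.818 at 6am and 1.15, 1.41 and 0.939 at noon. Pdgfrb was at 2.14, 2.39 and 1.17 at 6pm, 3.12, 3.47 and 2.07 at midnight, 2.71, 2.78 and 3.11 at 6am and 4.45, 5.03 and 4.52 at noon. For both genes, chosen by their adjusted p, the 3 noon livers were over the 9 others. The share of all genes with this pattern was not counted. Lamb1 was at 1.13, 1.08 and 0.722 at 6pm, 1.56, 1.6 and 1.16 at midnight, 1.15, 1.91 and 1.68 at 6am and 1.95, 1.87 and 2.5 at noon, and Col5a1 was at 0.886, 1.46 and 0.764, 1.55, 1.78 and 1.1, 1.38, 1.78 and 1.79 and 2.11, 2.65 and 2.23 at the same times. The count was 7 without replicate 2 of 6pm and 6 without replicate 1 of noon.

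In knockout-labelled ethanol livers 17 genes differed among the times, against 38.2% of all genes tested, and 12 did without the liver with pancreatic RNA. Without it Col1a1, Col6a3, Lamc1, Loxl1, Acta2 and Des did not pass (adjusted p of 0.125, 0.0624, 0.0713, 0.398, 0.12 and 0.0613), and Fn1 did (0.00598). Col18a1 (range 0.9, adjusted p = 0.000105) was at 93.9, 91.9 and 73.8 scaled FPKM at midnight and 167, 179 and 140 at noon. Col5a1 (0.92, adjusted p = 0.000242) was at 0.75, 0.466 and 0.708 at 6pm and 1.95, 1.4 and 1.62 at midnight. Lrat (1.13, adjusted p = 0.00211) was at 8.47, 10.8 and 15.3 at midnight and 5.85, 5.75 and 4.87 at 6am, and Mmp14 (0.95, adjusted p = 0.00237) at 22.4, 22.3 and 21.1 at midnight and 8.9, 13.7 and 11.1 at noon. Each of these pairs of times was without overlap, for genes chosen by their adjusted p. The share of all genes that separated in this way was not counted. At the times not yet given, Col18a1 was at 128, 102 and 107 at 6pm and 110, 163 and 157 at 6am, Col5a1 at 1.94, 1.48 and 1.53 at 6am and 0.691, 0.747 and 1.42 at noon, Lrat at 8.71, 4.51 and 7.13 at 6pm and 3.66, 3.43 and 8.82 at noon, and Mmp14 at 16.2, 26.5 and 15.8 at 6pm and 28.4, 15.3 and 18.7 at 6am.

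The dependence of the ethanol effect on time was called for 14 genes in knockout-labelled mice, against 10.9% of all genes tested, and for 0 in wild type, against 10.6%, where 2 had an unadjusted p under 0.05 and voom called 0. Pdgfrb (range of the effect 1.55, adjusted p = 0.00371), Fbn1 (1.34, adjusted p = 0.00647), Col4a1 (1.57, adjusted p = 0.00844) and Mmp14 (1.29, adjusted p = 0.00851) had the smallest adjusted p. Pdgfrb was at 1.21, 1.38 and 1.87 scaled FPKM in ethanol livers at noon, against 4.45, 5.03 and 4.52 in controls, and at 3.37, 2.82 and 3.47 against 3.12, 3.47 and 2.07 at midnight. The noon groups of Pdgfrb did not overlap and the midnight groups did. At noon 18.1% of all genes tested were lower without overlap. Fbn1 was at 0.274, 0.25 and 0.205 at 6pm, 1.27, 0.503 and 0.621 at midnight, 0.718, 0.334 and 0.538 at 6am and 0.237, 0.176 and 0.629 at noon in ethanol livers, against the control values given above. Mmp14 was at 13, 12 and 12 at 6pm, 16.9, 15.7 and 12.9 at midnight, 11.3, 14.5 and 18.1 at 6am and 19.4, 17 and 18.1 at noon in controls, against the ethanol values given above. The count was 14 without the liver with pancreatic RNA, 9 and 7 without ethanol replicates 0 and 1 of noon, 6 without control replicate 2 of midnight and 9 without control replicate 1 of noon. Whether the dependence on time differed between the genotype labels was not tested.

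Acta2 and Tagln varied widely among livers of a group. Acta2 was at 47.9, 6.29 and 0.721 scaled FPKM in the midnight livers of knockout-labelled ethanol mice, against 1.2, 3.32 and 0.718 in their controls, and at 19.9, 0.487 and 3.21 against 9.23, 2.75 and 6.48 at noon. The livers high in Acta2 were high in Myh11, a myosin of mature smooth muscle: Myh11 was at 13.9, 2.89 and 0.308 in the midnight ethanol livers and 3.42, 0.181 and 0.76 in the noon ethanol livers. In the 24 wild-type livers Acta2 did not exceed 3.42 scaled FPKM. Tagln, transgelin, another smooth muscle gene, was at 44.5, 8.44 and 4.05 in the midnight ethanol livers, and neither gene passed in any of the 5 comparisons averaged over the times. Acta2 differed among the times in knockout-labelled ethanol livers (adjusted p = 0.0464, and 0.12 without the liver with pancreatic RNA), and the 1 comparison of paired groups by time that called it was the knockout label in noon controls, at 9.23, 2.75 and 6.48 against 1.01, 0.517 and 0.607 (difference 2.34, SE 0.79, adjusted p = 0.0433).

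**Figure D5:**
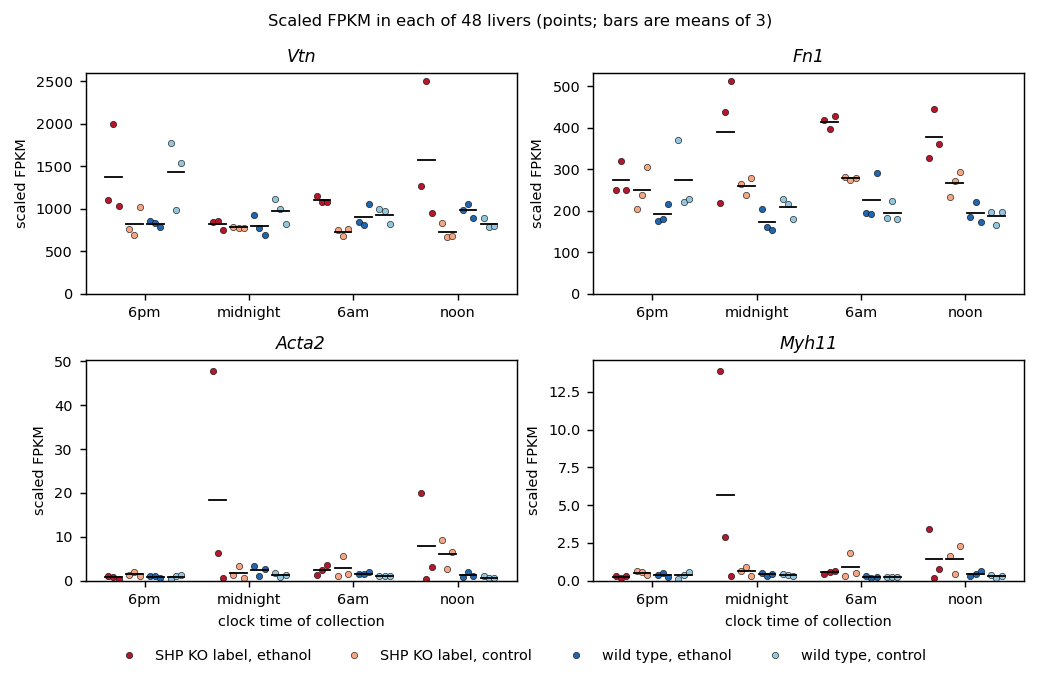
Scaled FPKM of Vtn, Fn1, Acta2 and the smooth muscle gene Myh11 in each of the 48 livers by clock time (points, with bars at the mean of 3 livers), in the order knockout-labelled ethanol, knockout-labelled control, wild-type ethanol, wild-type control. Vtn peaks at 1994 and 2505 in single knockout-labelled ethanol livers of 6pm and noon, and the midnight ethanol liver at 47.9 of Acta2 is also the top liver of Myh11, at 13.9.

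Other genes of the pathway, from lists drawn up by known function, were followed beside the 40. The counts are read against 15.4% higher and 16.9% lower of all genes tested, and the hepatocyte and bile duct lists were near those shares. In knockout-labelled controls against wild-type controls, 15 of 37 further matrix genes were higher and 2 lower, led by Hspg2 (perlecan, 0.53), Prelp (0.45) and Eln (elastin, 0.7). Of 18 genes of collagen synthesis and folding 9 were higher and 0 lower, with Loxl4 at 0.81 and the collagen chaperone Serpinh1 at 0.72. Of 17 matrix proteolysis genes 7 were higher and 0 lower, with Mmp12, the macrophage elastase, at 1.77 (SE 0.17, adjusted p = 8.56e-10) and Mmp13, a collagenase, at 0.99. Of 22 TGF-beta and PDGF signalling genes 7 were higher and 1 lower (Tgfbr2 at 0.52), and of 16 integrins and matrix receptors 11 were higher and 1 lower (Itgb5 at 0.42 and Sdc2 at -0.36). Of 13 targets of YAP and SRF 4 were higher (Tpm1 at 0.48) and 1 lower (Ankrd1 at -0.41). Of 16 further stellate cell markers 4 were higher, among them Cygb (cytoglobin) at 0.72, and 1 lower. Kupffer cell markers were higher for 10 of 13 and lower for 0, with Cd68 at 1.0. Of the other cell type lists, 4 of 13 sinusoidal endothelial markers were higher and 0 lower, 1 of 8 portal fibroblast and mesothelial markers, 1 of 5 smooth muscle markers and 1 of 4 neutrophil markers were higher and 0 lower, and 1 of 7 bile duct markers was higher and 1 lower. Of 9 hepatocyte markers 1 was higher and 2 lower, and of 10 lymphocyte markers 0 were higher and 1 lower.

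For ethanol, the shares of all genes tested were 16.8% higher and 14.8% lower in knockout-labelled mice and 16.6% and 13.7% in wild type. With ethanol in knockout-labelled mice 0 of the 37 further matrix genes were higher and 14 lower, led by Nid2 (-0.84), Ltbp4 (-0.76) and Agrn (-0.31). In wild type 2 were higher and 8 lower, with Nid2 at -0.76, Col27a1 at -1.5 and Ltbp4 at -0.61. Of 18 collagen synthesis genes 6 were higher and 1 lower in wild type (Plod1 at 0.57, P4hb at 0.8), and 4 were higher and 2 lower in knockout-labelled mice (P4hb at 0.73, Ppib at 0.7). P4hb and Ppib also fold proteins other than collagen. Of the 16 further stellate cell markers 1 was higher and 5 lower in knockout-labelled mice and 1 higher and 6 lower in wild type, the lectin Colec10 at -0.6 and -0.78 and Cygb the 1 that was higher in each. Mmp12 and Mmp13 fell by 1.42 and by 0.91 in knockout-labelled mice, and their ethanol effects differed between the labels by -1.49 (adjusted p = 0.000298) and -0.77 (adjusted p = 0.00596). Kupffer cell markers were lower for 4 of 13 in knockout-labelled mice and for 7 in wild type, with 1 higher (Marco) in each. Of 17 proteolysis genes 4 were higher and 6 lower in knockout-labelled mice and 3 higher and 4 lower in wild type, and of 22 signalling genes 0 were higher and 1 lower in knockout-labelled mice and 3 higher and 1 lower in wild type. Of 16 integrins and receptors 3 were higher and 3 lower in knockout-labelled mice, near the shares of all genes, and 4 higher and 1 lower in wild type, and of 13 YAP and SRF targets 1 was higher and 2 lower in knockout-labelled mice and 2 higher and 1 lower in wild type. In ethanol mice, the knockout label went with 12 of 13 Kupffer cell, 4 of 4 neutrophil and 2 of 5 smooth muscle markers higher and 0 lower. The shares of all genes tested were 12.6% higher and 15.8% lower. The smooth muscle sum ran from 1.81 to 39.3 scaled FPKM in knockout-labelled ethanol livers, against 1.29 to 3.15 in wild-type ones. Its top value belonged to the liver with pancreatic RNA. The neutrophil sum ran from 2.57 to 245, against 1.23 to 6.29, with 245 in the 6pm liver high in Saa1. The lists were not counted again without these livers. For ethanol, 0 of 8 portal fibroblast and 0 of 7 bile duct markers were called in either genotype, and 4 of 10 lymphocyte markers were lower and 0 higher in each.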

How the data were processed

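Poly(A) RNA of 48 mouse livers was sequenced as 50-cycle single reads from a kit that does not mark strand, per the labels' protocols. The deposited values are FPKM per gene, and Novoalign and the build GRCm38 are named in the submitters' processing notes, without a version of the aligner. For each of the 15041 genes a unit was sought as the common divisor of its FPKM values, allowing for library size. In all genes (100%) the values were whole multiples of that unit (within 0.001). The unit was taken as 1 read, which gave the read counts and the depths of 9605636 to 19780144 reads per library. Since the unit was chosen to make the values whole, this does not itself show that it is 1 read. From here, FPKM were multiplied by trimmed-mean (TMM) scale factors of 0.807 to 1.295, and genes under 0.5 FPKM in all but 2 or fewer libraries were dropped, which left 13765 and removed 1276. limma 3.58.1 in R 4.3.3 was fitted to log2(scaled FPKM + 0.5) with 16 group means, empirical Bayes with a trend, and Benjamini-Hochberg adjustment over all genes tested. Tables were made with Python 3.11.15, NumPy 2.4.6 and pandas 2.3.3. The fitting script was tested on simulated data. Over all genes tested, voom on the recovered reads called 4132 genes for ethanol in wild type, 4326 for ethanol in knockout-labelled mice, 897 for the difference of these effects, and 4427 and 3778 for the knockout label in controls and in ethanol mice.

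Comparisons were means over the 4 times, single times, and moderated F tests among times. Alternatives were pseudocounts of 0.1 and 1, no filter, library totals in place of TMM, voom on the recovered reads, a replicate block, and each library left out in turn. Noon left out, livers high in Saa1 left out, and the knockout label at each time were added after seeing the data.

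Values are given in full for genes called with a log2 change of at least 0.5 in a mean-of-times comparison (at most 8 per direction), for the 4 smallest adjusted p of each time test, and always for Col1a1, Col1a2, Col3a1, Acta2, Timp1, Tgfb1, Fn1, Vtn, Lrat and Ctgf. From each further list up to 3 genes are named. Some of the genes chosen for a time test are given by their test alone. The members, the lists and the tests were chosen with earlier results of these data known. The livers of a group come from separate mice, per the series' design text. Precision is limited by 3 livers per group, and low genes such as Timp1 rest on at most 44 reads per library.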

Additional observations from a re-analysis of the deposited data

Results flagged for a closer look

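The ethanol effect differed between the genotype labels in 4 genes, by the test of the difference itself (limma, Benjamini-Hochberg over all genes tested, 12 livers per arm). Of the 40 genes, 2 were more positive and 2 more negative in knockout-labelled mice, near the shares of all genes tested (3.69% and 4.32%). Vtn differed by 0.8, with a range of 0.7 to 0.87 when each of the 48 livers was left out and 0.49 without the 5 livers high in Saa1, and was called in all of these fits. Fn1 differed by 0.56 and was called in all 48 such fits, but not without noon (adjusted p = 0.0559), without the livers high in Saa1 (0.102) or under library totals (0.0749). Col6a3 differed by -0.65 and was likewise called in all 48, but not without noon (adjusted p = 0.324) or without the livers high in Saa1 (0.104). Col4a1 differed by -0.49, and 18 of the 48 fits kept its call, which was also lost without noon (adjusted p = 0.369). The causes of these differences were not tested.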

How the results depend on the processing

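Of 182 gene calls in all comparisons together, 22 were lost with library totals alone, 10 with voom, 4 with a pseudocount of 0.1, 3 with a pseudocount of 1 and 1 with no filter. The livers high in Saa1 left out ended 40, and noon left out ended 38 of 66 (both chosen after seeing the data). The causes were not tested, and such comparisons also rest on fewer livers. The shares of all genes called were not counted for fits without the livers high in Saa1, nor for those without a single liver. The counts of such fits therefore cannot be set against all genes. With library totals alone, the genes called numbered 6 for ethanol in wild type, 26 for ethanol in knockout-labelled mice, 14 for the difference of these effects, 0 for ethanol in wild type at 6am, 1, 4 and 2 for ethanol in knockout-labelled mice at 6pm, midnight and 6am, and 1 for time in wild-type controls. That scaling moved the median of all genes (by -0.385 on the log2 scale for ethanol in knockout-labelled mice at noon), and the share of all calls that were higher was 7.4% in place of 53% for ethanol in knockout-labelled mice and was 83.6% in place of 47.7% for the knockout label in controls. With noon left out, 9 genes were called for ethanol in knockout-labelled mice, 1 for the difference and 8 for the knockout label in controls, and Pdgfrb reversed to 0.06 (adjusted p = 0.765) for ethanol in knockout-labelled mice. With the livers high in Saa1 left out, 11 genes were called for ethanol in knockout-labelled mice, 1 each for ethanol in wild type at 6pm and at noon, 1 and 2 for ethanol in knockout-labelled mice at 6pm and 6am, 1 for time in wild-type controls and 0 for the knockout label at 6pm.

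Leaving out each liver in turn gave 8 to 11 calls for ethanol in wild type, 12 to 21 for ethanol in knockout-labelled mice, 3 to 8 for the difference, 25 to 31 for the knockout label in controls and 6 to 8 in ethanol mice. By time it gave 2 to 4 (6pm), 1 to 2 (midnight), 0 to 2 (6am) and 0 (noon) for ethanol in wild type, 0 to 3, 2 to 7, 0 to 3 and 17 to 31 for ethanol in knockout-labelled mice, and 0 to 4, 0 to 1, 0 and 15 to 20 for the knockout label in controls. Time gave 0 to 1 in wild-type controls, 1 to 5 in wild-type ethanol livers, 6 to 12 in knockout-labelled controls and 12 to 18 in knockout-labelled ethanol livers, and its interaction with ethanol 0 to 1 in wild type and 6 to 18 in knockout-labelled mice.

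Livers with the same replicate number did not deviate together on average: their deviations had mean correlations of -0.01, -0.01 and 0.01. Single pairs of the same number ranged from -0.57 to 0.46, and pairs of different numbers from -0.6 to 0.64. A pairing within a part of the groups was not tested. The replicate block gave 11 calls for ethanol in wild type, 17 in knockout-labelled mice, 4 for the difference, 28 for the knockout label in controls and 6 in ethanol mice, as without it, and it ended 4 of the 182 calls.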
